A study of Mus musculus with 18 samples.

Results

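To ask what progresses, what returns and what is new between an early and a later time after cardiac irradiation (IR), the ventricular septa of mice harvested at 6 weeks post-IR were compared with those of mice harvested at 2 weeks post-IR. The comparison holds the 6 mice labelled as 6 weeks and the 6 labelled as 2 weeks, which are 12 of the 18 mice sequenced, and they were chosen by those labels alone. The 2-week and 6-week mice were CD-1, of both sexes, aged 8 weeks or more, and each had received 25 Gy once under isoflurane. The other 6 mice, of the same strain, sexes and minimum age, were anesthetized without IR, and served to show which genes had already moved at 2 weeks. CD-1 is an outbred stock, so that the mice of a group are not genetically identical. Each mouse is a separate animal and each library was made from bulk RNA of the septum, with no sorting of cells. The labels call the radiation gamma, whereas the published methods describe X-rays delivered to the whole heart from opposed beams. Neither the age at harvest nor the sex of each mouse is labelled, so that 4 weeks of additional age and 4 weeks of additional time since IR cannot be told apart.

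The septum is mostly cardiomyocytes by mass, with capillary endothelium, fibroblasts, mural cells and macrophages between them. Ionizing radiation breaks DNA and activates p53, which induces genes for cell cycle arrest and apoptosis. Endothelium is among the more radiosensitive cells of the heart, and growing vessels are led by tip cells that secrete apelin, angiopoietin 2 and Esm1. Interferons induce a shared set of antiviral genes through promoter elements called ISREs, and interferon gamma also raises the MHC class II genes with which macrophages present antigen. Adult cardiomyocytes depend on mitochondrial fatty acid oxidation and on potassium, sodium and calcium channels for the action potential.

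Expression was measured by RNA sequencing and is given as CPM, the count of a gene relative to the total of its library, after TMM scaling, edgeR's correction for differences in library composition. The libraries held 12959909 to 14937504 estimated counts at 2 weeks and 11519351 to 14840071 at 6 weeks, so that a count of 3, taken as the floor for detection, was 0.201 to 0.231 CPM at 2 weeks and 0.202 to 0.260 CPM at 6 weeks. Of 30072 genes, 15054 reached 0.23 CPM in at least 6 mice and were tested. Counts of gene lists are over the members that passed this filter. Some genes belong to several lists and are counted in each, so that the lists are not independent. A gene was called if its adjusted P was under 0.05 by edgeR's quasi-likelihood test with Benjamini-Hochberg adjustment over all 15054 genes, and this is the test behind every adjusted P below. Fold changes are log2 values of 6 weeks over 2 weeks with the standard error unless another pair is named, and each group has n = 6. Where 3 CPM values are given for a group, they are those of the lowest mouse, the median and the highest mouse. Scaling factors differed between the times, at 0.962 to 1.03 at 2 weeks and 1.04 to 1.13 at 6 weeks (two-sided exact permutation test, P = 0.00216, the smallest possible with 6 against 6; adjusted P = 0.00648 over the comparisons of library measures). The share of reads from mitochondrially encoded genes had a median of 20.2% at 2 weeks and 17.4% at 6 weeks (exact permutation P = 0.0563, adjusted 0.0628). Scaling by library size alone moved the median change over all genes tested from -0.00 to 0.11 (log2).

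Between 2 and 6 weeks, 802 genes were called, 5.33% of those tested, of which 499 rose (3.31%) and 303 fell (2.01%). A log2 fold change beyond 1 in size was reached by 172 of them (1.14%), 145 higher (0.963%) and 27 lower (0.179%) at 6 weeks. Over all genes tested, called or not, every 6-week mouse lay on one side of every 2-week mouse in 533 (3.54%), 342 of them higher (2.27%) and 191 lower (1.27%). Higher calls were 62.2% of all calls with TMM scaling. With library size alone the split was 91.3% higher among 1202 calls, and on log2(TPM + 1), the scale of the deposited abundances, 95.6% higher among 1073 calls. All 499 higher genes and 104 of the 303 lower genes were still called with library size alone, and none of the 802 changed sign. On log2(TPM + 1), 445 of the higher and 44 of the lower genes were still called and 4 of the 802 changed sign.

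The called genes were sorted by their calls against the controls into 4 classes, which use the same mice in each contrast and are therefore descriptions of these 18 mice. A gene was progressing if it was also called at 2 weeks against control in the same direction, and returning if it was called there in the opposite direction. It was new at 6 weeks if it was called against control at 6 weeks only, and between the times only if neither contrast with control called it. Of the 802 genes, 126 (15.7%) were progressing, 16 (2.0%) returning, 589 (73.4%) new at 6 weeks and 71 (8.85%) between the times only. Progressing genes were mostly rising, with 116 higher and 10 lower at 6 weeks, and the median of the 116 was 0.72 at 2 weeks and 1.37 at 6 weeks against control. New genes comprised 345 higher and 244 lower at 6 weeks. The new higher genes had a median of 0.29 at 2 weeks against control and 1.12 at 6 weeks, and the new lower genes -0.07 and -0.47. Of the 589 new genes, 469 had the same sign at 2 weeks against control and 153 had an unadjusted P under 0.05 there, so that new means not called at 2 weeks rather than unmoved. A further 2519 genes were called at 6 weeks against control, but neither at 2 weeks nor between the times. They are in none of the 4 classes. Conversely, of the 755 genes called at 2 weeks against control (5.02% of genes tested), 613 were not called between the times. Of these, 523 were again called at 6 weeks against control (3760 genes, 25.0%) in the same direction. The other 90 were not called at 6 weeks against control, so that returning does not cover every gene that lost its call.

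**Figure D1:**
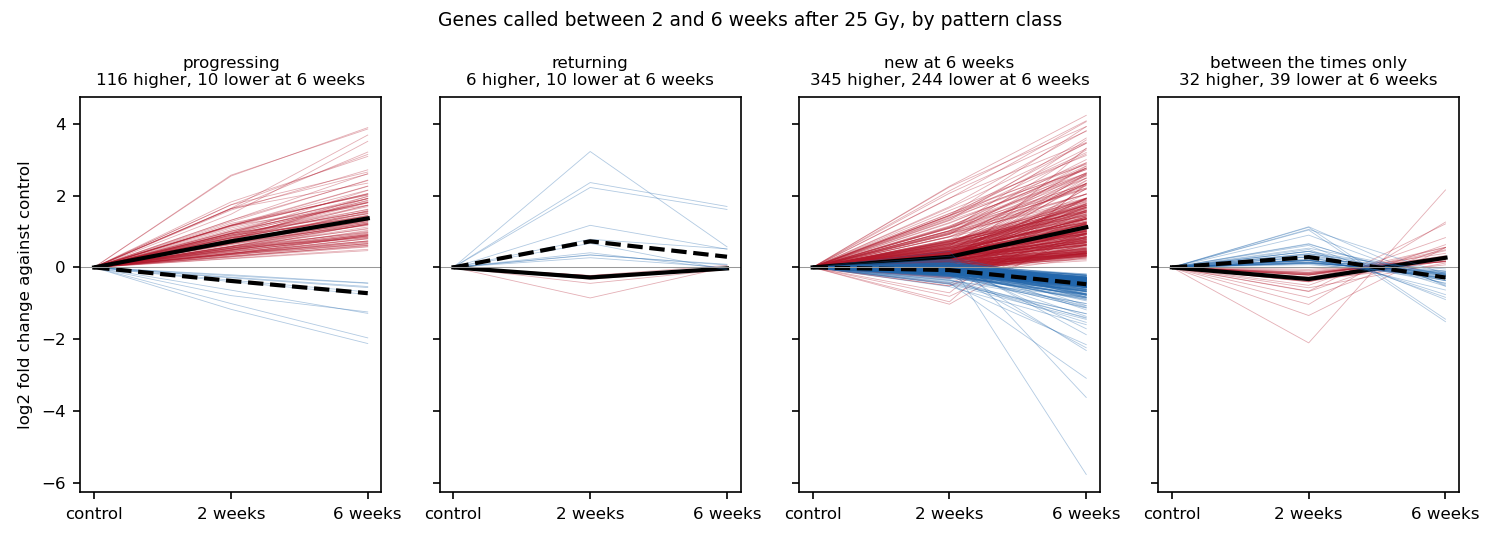
Log2 fold change against control (y axis) of the genes called between 2 and 6 weeks, at control (0), 2 and 6 weeks (x axis), 1 panel per class; red lines are genes higher at 6 weeks than at 2 weeks, blue lines genes lower, and the black solid and dashed lines their medians. The 345 rising new genes have a median of 0.29 at 2 weeks and 1.12 at 6 weeks, and 16 of the called genes turn back toward control.

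How far the calls rest on single mice was examined by leaving out each of the 18 mice in turn, which gave 330 to 994 calls. Among the 136 called genes that the naming rule picks, 75, all with an adjusted P of 0.0208 or less, kept their call without any 1 mouse, and 61, all at 0.0219 or more, lost it without at least 1. Calls of the first kind are named held calls here, and the account below leans on them. In each group, 3 mice had reads from Y-linked genes and 3 had none. All but 1 of the 802 genes changed in the same direction in both kinds of mice (801 genes, 99.9%). Since these genes were called over the same mice, that agreement was largely set in advance and is no separate support. No gene was called for a difference in its change between the kinds by the edgeR interaction test (lowest adjusted P = 0.304). In that test 1387 of the 15054 genes had an unadjusted P under 0.05. With 3 mice of each kind in a group it can miss differences, so that none is excluded.

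Vessel genes were among those with the smallest adjusted P. Of 24 apelin, tip cell and angiopoietin genes, 8 rose and 2 fell between the times, where 3.31% of all genes rose and 2.01% fell. The median log2 fold change of the list was 0.25, against -0.00 for all genes. Among the secreted ligands of the list, Apln, which encodes apelin (chrX:48025146-48034853, minus strand, GRCm38), was at 43.6, 88.1 and 117 CPM at 2 weeks and at 142, 197 and 248 CPM at 6 weeks. Every 6-week mouse was above every 2-week mouse, and the change was 1.29 ± 0.20 (adjusted P = 0.00276) on top of 2.57 at 2 weeks against control. Angpt2, the antagonist ligand of the Tie2 receptor, was at 4.84, 6.98 and 9.10 CPM at 2 weeks and 11.7, 16.3 and 19.2 CPM at 6 weeks, again without overlap (1.20 ± 0.16, adjusted P = 0.00086). Pgf, a VEGF family ligand of Flt1, went from 4.17, 6.04 and 7.52 CPM to 10.8, 12.9 and 17.1 CPM. The lowest 6-week mouse was above the highest 2-week mouse for Pgf too (1.16 ± 0.16, adjusted P = 0.00111). These 3 ligands were progressing genes.

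Esm1, a proteoglycan secreted by tip cells (chr13:113209659-113218098, plus strand), was not progressing but new. It was at 0.733, 1.92 and 2.65 CPM at 2 weeks and at 5.19, 15.8 and 30.5 CPM at 6 weeks. The 2-week mice were at the level of the controls, whose mean was 1.68 CPM (0.10 at 2 weeks against control, adjusted P = 0.938). The 6-week mice all lay above them but differed widely among themselves (3.22 ± 0.38, adjusted P = 0.000288). The 2 members that fell were Tek and Vegfb. Tek, which encodes the Tie2 receptor, had a change of -0.36 ± 0.10 (adjusted P = 0.0388) and one of -0.40 at 2 weeks against control. Vegfb, a VEGF family ligand abundant in the heart, had a change of -0.24 ± 0.06 (adjusted P = 0.0212). Aplnr, the apelin receptor, had a log2 fold change of -0.25 ± 0.24 (adjusted P = 0.61) and Kdr, the main VEGF receptor of endothelium, one of -0.02 ± 0.08 (adjusted P = 0.95), neither of which was called.

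Basement membrane and junction genes of vessels rose as well, some of them already counted above. Col4a1 and Col4a2 are among the rising genes of the apelin list and of the collagen list below. Pecam1 is also counted in the adhesion list below. Col4a1, a chain of the type IV collagen that sheathes capillaries, was at 808, 973 and 1181 CPM at 2 weeks and 1198, 1507 and 2001 CPM at 6 weeks, without overlap (0.69 ± 0.15, adjusted P = 0.0167). Its partner chain Col4a2 moved by 0.63 ± 0.13 (adjusted P = 0.0138). Mcam, an adhesion molecule of endothelium and mural cells, rose from 44.0, 52.2 and 62.3 CPM to 80.7, 88.2 and 116 CPM. This was among the smallest adjusted P values of all genes (0.84 ± 0.09, adjusted P = 0.000164), and no mouse overlapped. Of 16 pan-endothelial markers, 4 rose (25.0%, where 3.31% of all genes did) and none fell, and the median was 0.20. Pecam1, a junctional adhesion molecule, was at 159.5, 179 and 196 CPM and then 203, 228 and 282 CPM, with the 6-week mice all above (0.42 ± 0.08, adjusted P = 0.01). Cdh5, the endothelial cadherin, was at 273, 299 and 331 CPM and then 343, 391 and 473 CPM, also without overlap (0.40 ± 0.09, adjusted P = 0.015). The other 2 calls, Eng and Esam, were at an adjusted P of 0.0496 each and were lost without any 1 of 12 and 14 of the 18 mice. In bulk tissue, more cells of a type and more RNA per cell, or fewer and less, cannot be told apart, here or for any list below. The summed level of the 16 markers was 1544 to 1715 CPM at 2 weeks and 1709.6 to 2206 CPM at 6 weeks.

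Not all vessel genes rose. Aqp1, the water channel of capillary endothelium (chr6:55336432-55348555, plus strand), was already low at 2 weeks and fell further. Its mean was 249 CPM in the controls, and the irradiated mice were at 89.2, 106 and 141 CPM at 2 weeks and at 42.1, 51.5 and 86.1 CPM at 6 weeks. The highest 6-week mouse was just under the lowest 2-week mouse (-0.95 ± 0.16, adjusted P = 0.00343). Cdh23, a cadherin best known from the hair cells of the inner ear, had the same course, with 10.1, 11.2 and 17.8 CPM at 2 weeks and 4.83, 5.80 and 10.4 CPM at 6 weeks. Here 6-week mouse 4 reached into the 2-week range and the others did not (-0.96 ± 0.18, adjusted P = 0.00732). None of 12 capillary fatty acid uptake genes was called (median 0.05). Of 7 lymphatic markers 3 fell (42.9%, where 2.01% of all genes did) and 4 were not called, with a median of -0.38. Their summed level was 200.1 to 219.9 CPM at 2 weeks and 169 to 198 CPM at 6 weeks. Mmrn1, a secreted protein of lymphatic endothelium, was at 6.18, 9.80 and 10.9 CPM and then 3.62, 4.73 and 7.19 CPM, with overlap at the edge of the groups (-0.92 ± 0.21, adjusted P = 0.0194). Without 2-week mouse 4 or 6-week mouse 3 only 1 of the 3 lymphatic calls remained.

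A regulator of signaling and genes of leukocyte adhesion rose too. Rgs16, a brake on G protein signaling (chr1:153740349-153745468, plus strand), was progressing, with 2.55, 3.71 and 6.75 CPM at 2 weeks and 11.6, 17.0 and 23.2 CPM at 6 weeks. No mouse overlapped (2.04 ± 0.22, adjusted P = 0.000113). Sele, the E-selectin on which leukocytes roll, went from 1.18, 1.44 and 2.39 CPM to 2.97, 4.53 and 6.62 CPM. It was new at 6 weeks, with no 6-week mouse as low as any at 2 weeks (1.51 ± 0.22, adjusted P = 0.0017). Of 9 leukocyte adhesion molecules and 13 coagulation and fibrinolysis genes, 3 each rose and none fell, where 3.31% of all genes rose and 2.01% fell.

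Ctla2a had the smallest adjusted P of all genes tested. It encodes a protein related to the propeptide of cathepsins, which inhibits these proteases (chr13:60934155-60936625, minus strand). It was at 11.1, 12.4 and 14.4 CPM at 2 weeks, against a control mean of 9.10 (0.47 at 2 weeks against control, adjusted P = 0.0889), and at 25.4, 33.5 and 46.1 CPM at 6 weeks. The groups were far apart (1.46 ± 0.15, adjusted P = 0.000109). Its near copy Ctla2b rose by less (0.70 ± 0.17, adjusted P = 0.0238), and reads may be divided between the copies. Without 6-week mouse 3 only 1 of the 3 calls among 8 Ctla2 and cathepsin genes remained. Tmsb4x, which sequesters actin monomers, was at 131, 149 and 151 CPM and then 193, 243 and 286 CPM, without overlap (0.76 ± 0.09, adjusted P = 0.000164).

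**Figure D2:**
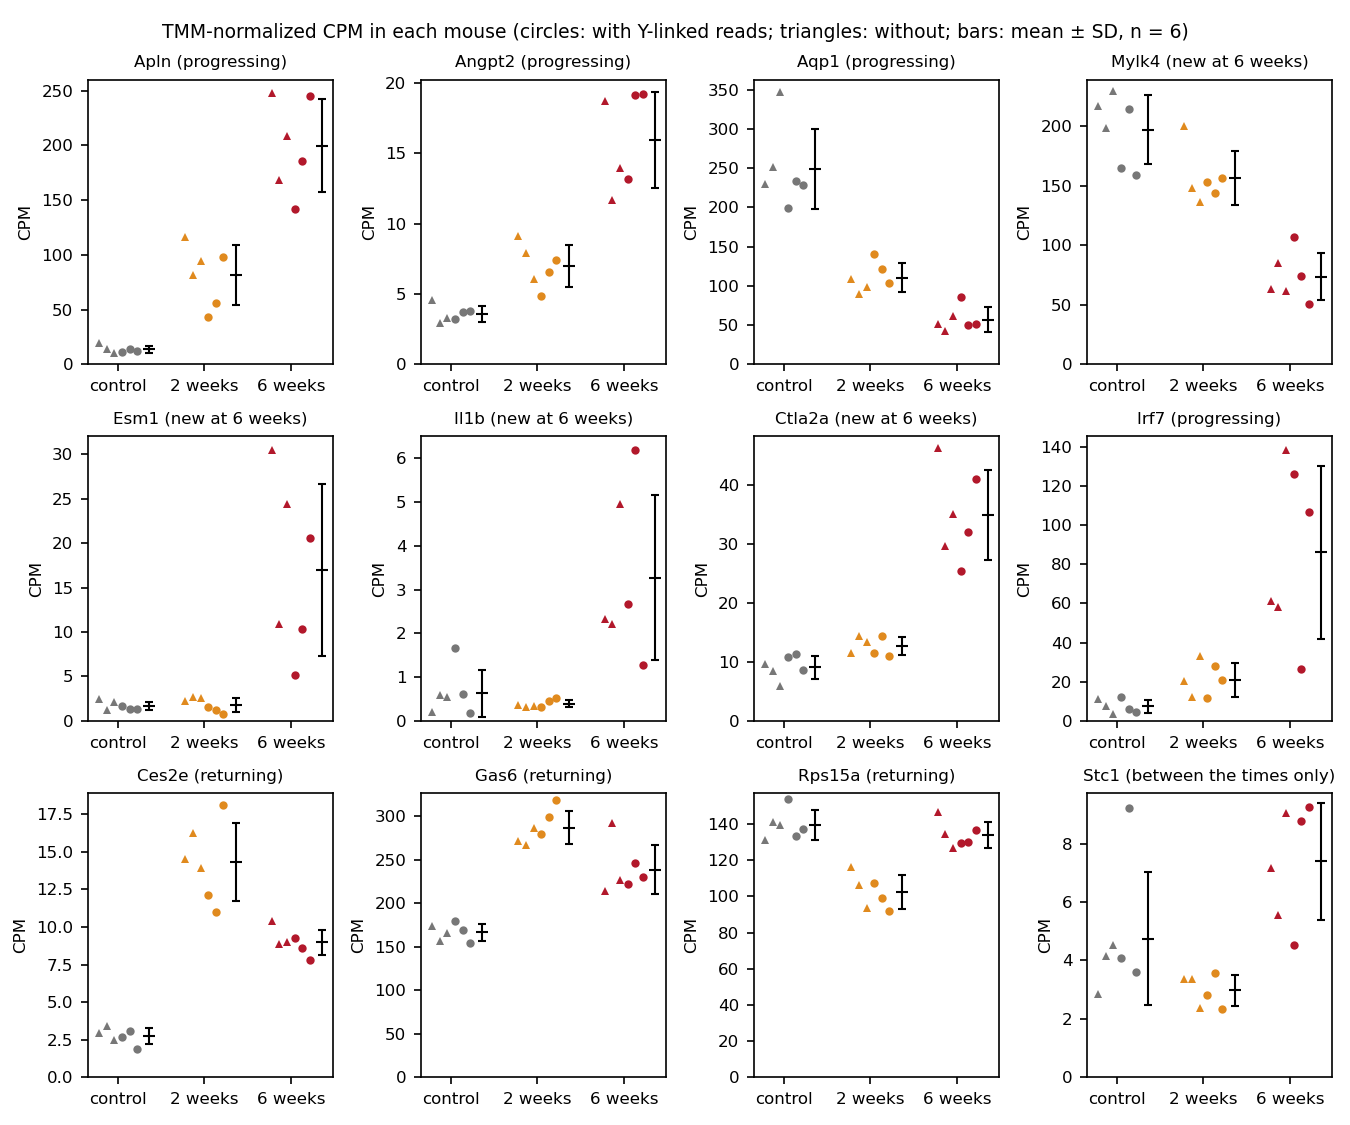
TMM-normalized CPM (y axis, from 0) of 12 genes in each control, 2-week and 6-week mouse (x axis), with the class of each gene in its title; circles are mice with Y-linked reads, triangles mice without, and bars the mean ± SD of 6 mice. Apln climbs at both times and Aqp1 falls at both, Esm1, Il1b and Ctla2a are called against control at 6 weeks only, and Ces2e, Gas6 and Rps15a turn back after 2 weeks.

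Of 30 interferon-stimulated genes, all of which were tested, 15 rose from 2 to 6 weeks and 15 were not called, where 3.31% of all genes rose. The median of the list was 0.97. At 2 weeks against control 6 of the 30 were called higher (3.09% of all genes were), and at 6 weeks against control all 30 (13.5% of all genes). The promoters of 3 of the called members and of Cxcl10, an interferon-induced chemokine that rose too, are shown beside the values of these genes. Each is the RefSeq sequence (GRCm38.p6) of the 250 bases before the start, 5′ to 3′ on the strand of the gene, in lower case throughout because no element within them was marked. They are chr19:34640639-34640888 (plus strand) for Ifit1, chr19:34583279-34583528 (plus strand) for Ifit3, chr5:120907526-120907775 (minus strand) for Oas1a and chr5:92348890-92349139 (minus strand) for Cxcl10. RefSeq promoters were found for 20 of the 30 list members.
Ifit1: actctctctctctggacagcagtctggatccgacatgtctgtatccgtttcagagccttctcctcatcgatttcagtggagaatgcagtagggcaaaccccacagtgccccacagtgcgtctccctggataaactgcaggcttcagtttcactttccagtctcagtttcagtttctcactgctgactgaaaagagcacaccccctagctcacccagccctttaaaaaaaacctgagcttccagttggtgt
Ifit3: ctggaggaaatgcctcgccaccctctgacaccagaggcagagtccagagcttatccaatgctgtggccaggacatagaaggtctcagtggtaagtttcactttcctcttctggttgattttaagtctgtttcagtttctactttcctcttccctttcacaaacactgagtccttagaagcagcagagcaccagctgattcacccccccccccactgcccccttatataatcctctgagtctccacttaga
Oas1a: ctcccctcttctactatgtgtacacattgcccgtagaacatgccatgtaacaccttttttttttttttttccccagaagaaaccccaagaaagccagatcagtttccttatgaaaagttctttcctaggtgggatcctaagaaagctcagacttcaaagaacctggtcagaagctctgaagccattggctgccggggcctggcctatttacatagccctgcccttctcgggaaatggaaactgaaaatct
Cxcl10: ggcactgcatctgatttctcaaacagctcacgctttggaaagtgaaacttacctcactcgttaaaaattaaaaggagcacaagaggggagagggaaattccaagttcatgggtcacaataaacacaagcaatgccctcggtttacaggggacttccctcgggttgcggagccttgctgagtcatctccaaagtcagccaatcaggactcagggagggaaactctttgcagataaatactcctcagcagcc
No binding to these promoters was measured.

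Irf7, the transcription factor that amplifies the interferon response (chr7:141262706-141266481, minus strand), was at 11.5, 20.6 and 33.1 CPM at 2 weeks and at 26.5, 83.8 and 139 CPM at 6 weeks. The highest 2-week mouse was above the lowest 6-week mouse (2.03 ± 0.37, adjusted P = 0.00567). Ifit1, which binds foreign RNA caps and whose promoter is shown above, was at 2.94, 6.27 and 11.5 CPM and then 7.24, 19.1 and 31.7 CPM. Its groups overlapped as well (1.59 ± 0.34, adjusted P = 0.015), and none of the 30 genes separated the groups without overlap. Ifit3 and Oas1a had changes of 1.54 ± 0.37 (adjusted P = 0.0249) and 1.32 ± 0.32 (adjusted P = 0.0238), and Isg15, a ubiquitin-like protein, one of 1.37 ± 0.34 (adjusted P = 0.0274). Ifit family members are close in sequence, and reads may be divided between them. The count of 15 changed when single mice were left out. It was 4 without 2-week mouse 2, 2-week mouse 4 or 6-week mouse 3, 5 without 2-week mouse 1 or 6-week mouse 6, 7 without 2-week mouse 6, and as high as 19 without another. The median log2 ratio of the 30 genes to the control mean was 0.19 to 1.63 across the 2-week mice and 1.12 to 2.28 across the 6-week mice. None of 13 guanylate-binding proteins and immunity-related GTPases (median 0.63) and none of 16 MHC class I genes (median 0.26) was called.

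A few genes of the MHC class II and myeloid lists were called, all of them higher at 6 weeks. Of 8 class II genes, Ctss and Cd74 rose (25.0%, where 3.31% of all genes did) and none was called lower, and the median was 1.09. Changes of the 8 ran from -1.95 to 1.75, and 6 were positive. Without 2-week mouse 2 or 4 or 6-week mouse 6, 1 call was left. H2-Ea-ps, outside the list and by its symbol a class II pseudogene, was called lower (adjusted P = 0.0306), with a mean TPM of 1.96 at 2 weeks and 0.331 at 6 weeks. That call was lost without any 1 of 8 of the mice. H2-Aa, below the filter, had at most 2 counts in any mouse, whereas H2-Ab1 reached 313. Whether the genotypes of these outbred mice affect the class II counts was not tested. Cd74, the invariant chain that escorts class II molecules, was at 69.8, 114 and 181 CPM at 2 weeks and at 232, 259 and 405 CPM at 6 weeks. No mouse overlapped, and 6-week mouse 6 stood above the other 6-week mice (1.30 ± 0.31, adjusted P = 0.0237). The call was lost without 2-week mouse 2, 2-week mouse 4 or 6-week mouse 6, with an adjusted P of up to 0.0605. Ctss, the protease that cleaves the invariant chain, went from 12.3, 17.0 and 20.3 CPM to 24.8, 37.3 and 62.9 CPM. Its groups did not overlap and its call was held (1.26 ± 0.27, adjusted P = 0.016). Of 18 pan-macrophage and myeloid markers, C1qa, C1qb, Ctss and Ptprc rose (22.2%), none fell and the median was 0.66. Their summed level was 362 to 474 CPM at 2 weeks and 539 to 781 CPM at 6 weeks. C1qa, a complement subunit made by macrophages, was at 16.9, 20.7 and 23.1 CPM and then 28.0, 31.1 and 43.3 CPM, without overlap and with 6-week mouse 6 apart at the top (0.66 ± 0.14, adjusted P = 0.0145). The count of 4 was 8 without control mouse 3 and 14 without control mouse 4.

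Markers of recruited and of resident macrophages were counted separately. Among 10 markers of recruited macrophages and monocytes, Itgax and Fn1 rose and none fell (median 0.72), where 3.31% of all genes rose and 2.01% fell. The count was 0 or 1 without any 1 of 12 of the mice. Fn1 is also counted in the matrix list below. It reached 13925 counts in a mouse, against 586 for Cd9 of the same list, so that its call need not concern macrophages. Among 10 markers of resident macrophages none rose, Gas6 fell and the median was -0.20. Gas6 reached 4515 counts in a mouse, against 1252 for Mrc1 of the same list, so that its call need not concern macrophages either. The difference between these lists was not tested. Ccr2, the receptor of recruited monocytes, was called at 2 weeks against control (1.94, adjusted P = 0.0189) and had a change of 0.67 ± 0.37 (adjusted P = 0.313) between the times. Of 10 T and NK cell markers 1 rose, Ccl5. None of 6 B cell markers was called (median 0.56).

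A few chemokine and cytokine genes rose from low levels. Of 20 chemokine ligand genes, Ccl5, Cxcl9, Cxcl10, Cxcl16 and Ccl12 rose and Ccl21a fell, where 3.31% of all genes rose and 2.01% fell. The median of the list was 0.74. Cxcl10, which attracts T cells and whose promoter is shown above, was at 0.654, 1.32 and 2.64 CPM at 2 weeks and at 3.05, 6.82 and 10.8 CPM at 6 weeks. All 6-week mice were above all 2-week mice (2.12 ± 0.36, adjusted P = 0.00383). Ccl5, made by T cells and macrophages, went from 0.262, 1.03 and 1.66 CPM to 2.80, 3.52 and 5.72 CPM, also without overlap (2.00 ± 0.31, adjusted P = 0.00272). Cxcl9 and Cxcl16 rose by 1.60 ± 0.27 (adjusted P = 0.00384) and 0.72 ± 0.13 (adjusted P = 0.0061). Il1b, the cytokine of the inflammasome (chr2:129364570-129371139, minus strand), was near the floor at 2 weeks with 0.321, 0.357 and 0.513 CPM, and was at 1.28, 2.50 and 6.19 CPM at 6 weeks. The 6-week mice were all above the 2-week mice (3.02 ± 0.46, adjusted P = 0.00221), and the control mean was 0.629 CPM (adjusted P = 0.57 for 2 weeks against control). Ch25h, which makes the antiviral oxysterol 25-hydroxycholesterol, was at 1.26, 2.42 and 3.96 CPM and then 6.45, 9.89 and 15.4 CPM, without overlap (2.03 ± 0.29, adjusted P = 0.00154). Tnfrsf26, a receptor of the TNF family that lies among close relatives, went from 0.392, 0.893 and 1.25 CPM to 1.63, 4.45 and 6.09 CPM, with the lowest 6-week mouse above the highest 2-week mouse (2.25 ± 0.30, adjusted P = 0.00111).

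**Figure D3:**
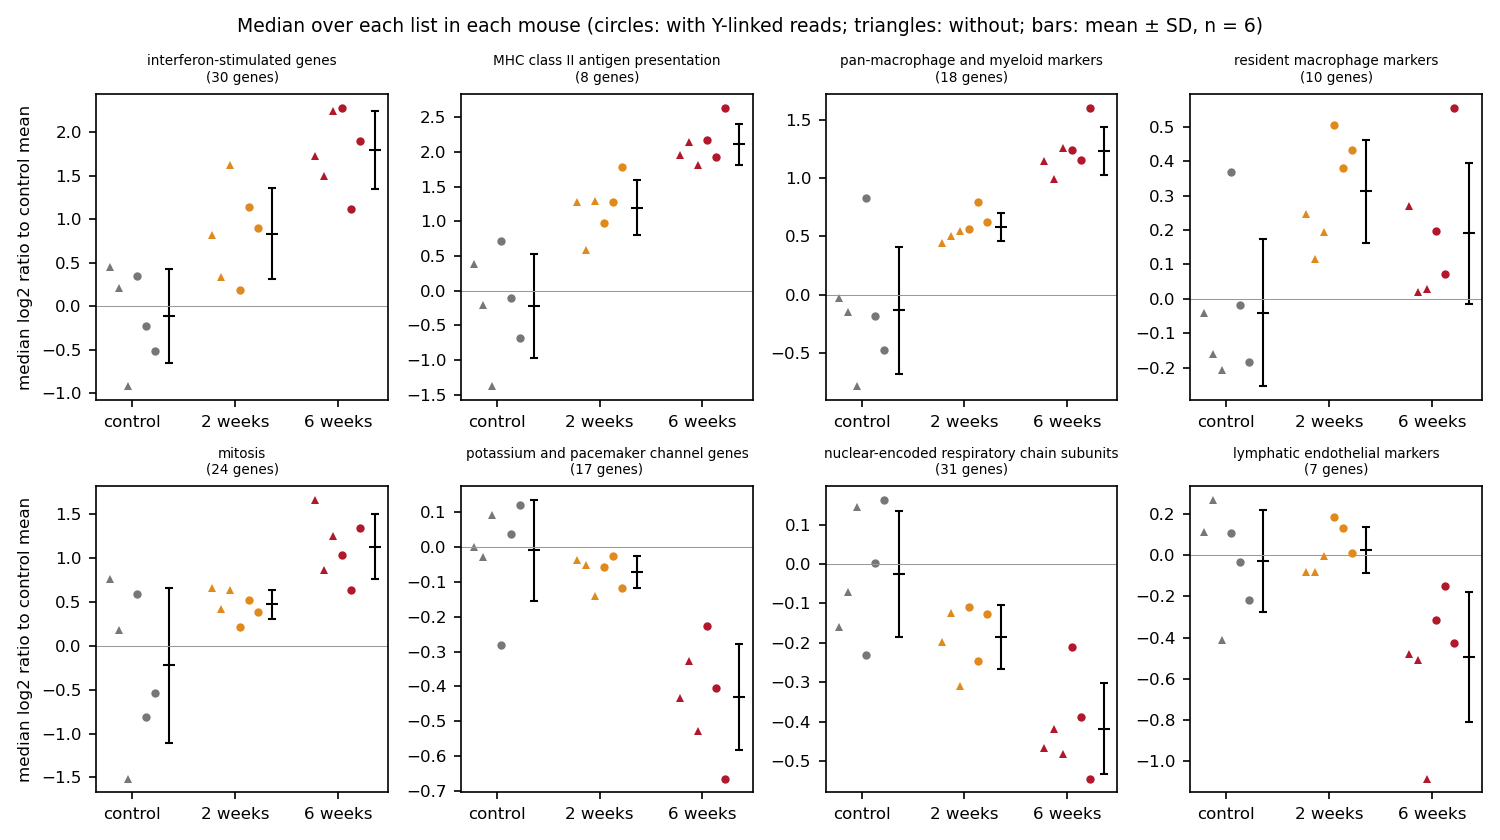
Median log2 ratio to the control mean over the members of 8 gene lists (y axis) in each control, 2-week and 6-week mouse (x axis); circles are mice with Y-linked reads, triangles mice without, and bars the mean ± SD of 6 mice. The class II and myeloid medians of all 6-week mice lie above those of the 2-week mice, the channel and lymphatic medians below, and the interferon, mitosis, respiratory chain and resident macrophage medians overlap.

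Most p53 targets were not called between the times. Of 27 tested, 12 were called higher at 2 weeks against control (3.09% of all genes were) and 18 at 6 weeks (13.5% of all genes), with medians of 0.70 and 1.15. None was called lower at 2 weeks and 2 were at 6 weeks. Between the times 6 rose (22.2%, where 3.31% of all genes rose), none fell and the median was 0.19. Cdkn1a, the inhibitor of cyclin-dependent kinases that p53 induces, was at 23.7, 42.5 and 51.4 CPM at 2 weeks and at 33.2, 64.8 and 90.5 CPM at 6 weeks, against a control mean of 7.44 CPM. The groups overlapped and the change was not called (0.65 ± 0.26, adjusted P = 0.154, 95% interval 0.10 to 1.20). Eda2r, a p53-induced death receptor, was at 14.4, 21.8 and 25.6 CPM and then 20.7, 24.3 and 29.8 CPM, with a change of 0.19 ± 0.14 (adjusted P = 0.472, 95% interval -0.11 to 0.50). Bax, the pore-forming protein of apoptosis, was called at 2 weeks (1.24, adjusted P = 1.11e-06) and had a change of 0.05 between the times (adjusted P = 0.817, 95% interval -0.16 to 0.27). Those intervals leave room for further change in both directions in Eda2r and Bax.

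The 6 targets that rose between the times were Gdf15, Zmat3, Psrc1, Ano3, Tnfrsf10b and Plk3. Zmat3, an RNA-binding p53 effector, was at 33.6, 42.9 and 49.2 CPM at 2 weeks and at 45.9, 64.3 and 74.6 CPM at 6 weeks. There was a small overlap (0.57 ± 0.11, adjusted P = 0.00879), and the gene had been called at 2 weeks already (1.16, adjusted P = 6.33e-06). Gdf15, a stress-induced hormone that p53 and the integrated stress response both induce, went from 3.34, 4.30 and 8.66 CPM to 8.30, 14.5 and 29.6 CPM and was new at 6 weeks. Only the highest 2-week mouse was above the lowest 6-week mouse (1.62 ± 0.29, adjusted P = 0.00549). Psrc1, a spindle protein, was at 0.561, 1.32 and 1.86 CPM and then 2.0, 4.0 and 8.06 CPM, without overlap (1.89 ± 0.37, adjusted P = 0.00917).

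**Figure D4:**
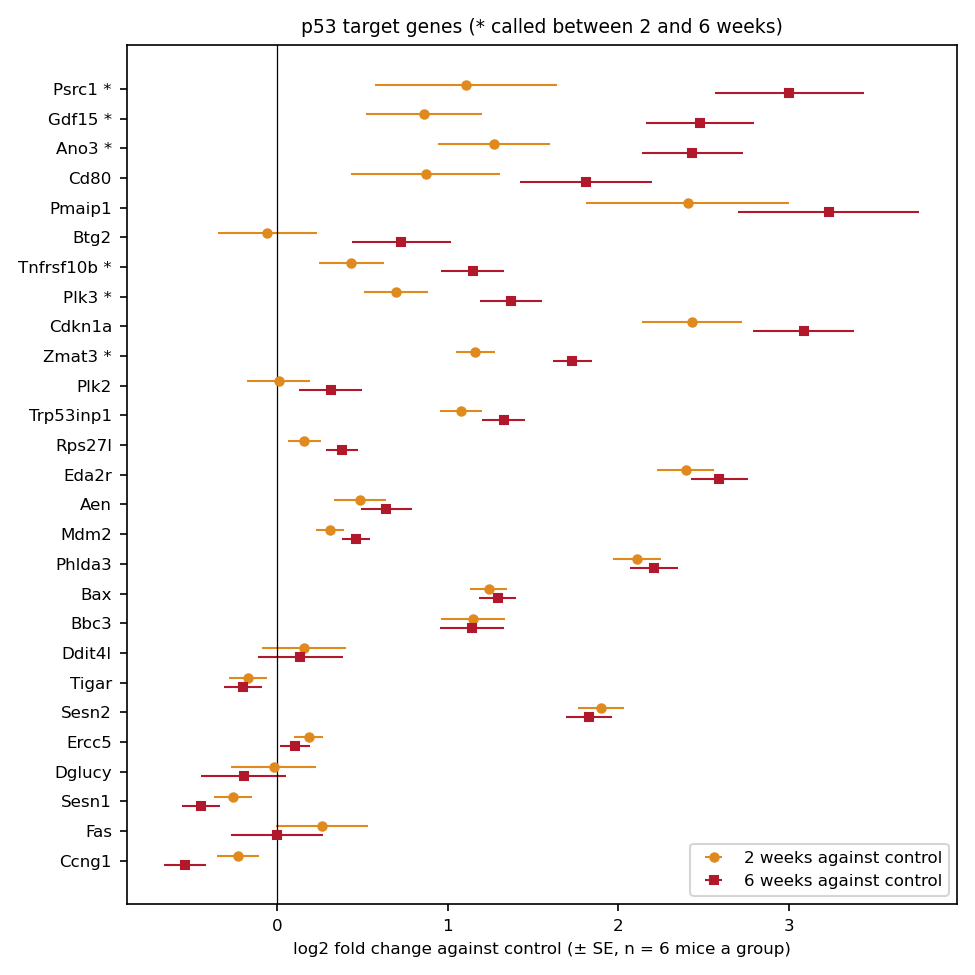
Log2 fold change against control (x axis, ± SE, 6 mice a group) of the p53 target genes tested (y axis), at 2 weeks (orange circles) and 6 weeks (red squares), sorted by the change between the times; an asterisk marks a gene called between 2 and 6 weeks. For Eda2r and Bax the 2 points lie close together and far from 0, and the 6 marked genes have points further apart.

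A few proliferation genes rose. Of 23 replication and S phase genes 3 rose and none fell (median 0.48), with 1 call left without 2-week mouse 2, 3 or 6 or 6-week mouse 1 or 3. Of 24 mitosis genes 3 rose (12.5%) and none fell (median 0.69). Mcm6, a subunit of the replicative helicase, was at 12.8, 14.4 and 15.3 CPM at 2 weeks and at 17.7, 19.6 and 26.3 CPM at 6 weeks. The groups did not overlap and 6-week mouse 1 was well above the rest (0.53 ± 0.12, adjusted P = 0.0175). The mitosis calls, Bub1b, Plk1 and Cenpe, were at adjusted P values of 0.0388 to 0.0451, and none remained without 2-week mouse 1, 2, 4, 5 or 6 or 6-week mouse 1, 3 or 6. Mki67, the common proliferation marker, was not called (0.56 ± 0.34, adjusted P = 0.365).

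Of 16 collagen chain genes in the list, Col18a1, Col4a1 and Col4a2, chains of basement membranes, rose (18.8%, where 3.31% of all genes did). None fell, and the median was 0.04. Col1a1 and Col3a1, the fibrillar collagens of scar, had log2 fold changes of -0.04 ± 0.31 (adjusted P = 0.962) and -0.31 ± 0.30 (adjusted P = 0.607), and that of Col1a1 was positive with library size alone and on both TPM scales. Of 25 matricellular and myofibroblast matrix genes, Sparc, Thbs1, Tgfb1 and Fn1 rose (16.0%) and none fell (median 0.29). Sparc, a collagen-binding glycoprotein that endothelium also makes, was at 422, 469.9 and 495 CPM at 2 weeks and at 642, 747 and 1001 CPM at 6 weeks, without overlap (0.77 ± 0.14, adjusted P = 0.00732). Thbs1, an activator of latent TGF-beta, went from 13.1, 20.8 and 39.1 CPM to 27.4, 72.1 and 151 CPM, and its groups overlapped (1.75 ± 0.38, adjusted P = 0.0167). Postn, a marker of activated fibroblasts, was at 1.34 ± 0.50 and was not called (adjusted P = 0.126). Col6a6, a minor type VI collagen chain that is not in the list, fell from 7.19, 9.07 and 11.8 CPM to 2.15, 3.18 and 6.45 CPM, without overlap (-1.26 ± 0.26, adjusted P = 0.0134). Among 14 fibroblast identity markers only Pi16 was called, and it was lower (7.14%, where 2.01% of all genes fell). The call of Pi16 was lost without any 1 of 14 of the mice. The list's median, -0.09, was positive with library size alone and on both TPM scales.

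Stress and metabolite transport genes added single calls. Hmox1, the heme oxygenase induced by oxidative stress, was progressing, with 18.9, 21.9 and 23.7 CPM at 2 weeks and 28.1, 33.0 and 44.1 CPM at 6 weeks and no overlap (0.66 ± 0.13, adjusted P = 0.0111). Slc2a1, the glucose transporter GLUT1, was at 20.0, 20.4 and 27.9 CPM and then 27.0, 35.4 and 37.7 CPM, and only the highest 2-week mouse, mouse 1, reached the 6-week range (0.65 ± 0.10, adjusted P = 0.00221). Slc20a1, a phosphate transporter, went from 24.8, 30.6 and 35.5 CPM to 43.0, 55.6 and 78.7 CPM without overlap (0.90 ± 0.13, adjusted P = 0.00115). No member of the cytosolic ribosomal protein, clock or heat shock lists was called. The first of these lists holds 19 genes and leaves out other ribosomal protein genes. Of those, Rps15a, described below, and Rps13 were called higher (adjusted P = 0.00272 and 0.0364), Rps13 with a call lost without any 1 of 8 of the mice.

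A few channel and mitochondrial genes of cardiomyocytes fell by small amounts, and most members of these lists were not called. Of 17 potassium and pacemaker channel genes, 4 fell (23.5%, where 2.01% of all genes did), Kcnj5, Kcnd3 and Kcnip2 among them, and none rose (median -0.24). Kcnj5, a subunit of the acetylcholine-gated potassium channel, was at 61.3, 68.1 and 76.4 CPM at 2 weeks and at 46.4, 51.3 and 58.3 CPM at 6 weeks, all mice lower at 6 weeks (-0.41 ± 0.08, adjusted P = 0.00785). The count of 4 was 2 without 2-week mouse 1 or 2, or without 6-week mouse 1, 2 or 6. Of 31 nuclear-encoded respiratory chain subunits, Cyc1, Uqcrc1 and Sdhd fell (9.68%) and none rose (median -0.19). Of 27 fatty acid oxidation and TCA cycle genes, Ppargc1a, Cs, Ogdh and Mdh2 fell (14.8%) and none rose (median -0.22). Cyc1, a subunit of complex III, was at 607, 655 and 735 CPM and then 456, 504 and 602 CPM, without overlap (-0.36 ± 0.08, adjusted P = 0.0148). Cs, citrate synthase, was at 956, 1028 and 1092 CPM and then 743, 791 and 968 CPM, with 6-week mouse 4 alone in the 2-week range (-0.34 ± 0.08, adjusted P = 0.0179). Ppargc1a, the coactivator that drives mitochondrial biogenesis, went from 66.2, 101 and 118 CPM to 49.4, 60.3 and 79.2 CPM, overlapping at the edges (-0.62 ± 0.13, adjusted P = 0.0156). Without 6-week mouse 4 the calls were 7 in each of these 2 metabolic lists. Without several of the other mice they were 1 in the respiratory list (2-week mice 1, 2, 4 and 6 and 6-week mice 3 and 6) and 2 in the oxidation list (2-week mice 1, 2, 4 and 6 and 6-week mice 1, 2, 3 and 6). With library size alone the calls in the channel, respiratory and oxidation lists were 1, 1 and 2 and their medians -0.13, -0.08 and -0.11, which stayed below 0 under every scaling tried. The calls of Kcnj5, Cyc1, Cs and Ppargc1a were kept with library size alone and lost on log2(TPM + 1).

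Other genes that fell lie outside these lists. Mylk4, a kinase of the myosin light chain kinase family expressed in muscle (chr13:32700834-32783954, minus strand), was at 136, 150.4 and 200.2 CPM at 2 weeks and at 50.9, 68.9 and 107 CPM at 6 weeks. No mouse overlapped, and 2-week mouse 1 was the high one (-1.08 ± 0.15, adjusted P = 0.00111). Pla2g5, a secreted phospholipase, was at 10.3, 14.4 and 24.3 CPM and then 3.25, 5.58 and 10.2 CPM, with the groups just touching at their edges but not overlapping (-1.30 ± 0.26, adjusted P = 0.00952). Paqr9, a membrane receptor of the progestin and adipoQ family, went from 61.2, 67.7 and 75.9 CPM to 45.2, 49.1 and 51.2 CPM, all lower (-0.50 ± 0.07, adjusted P = 0.00107). Slc25a11, the mitochondrial oxoglutarate carrier, was at 375, 377 and 422 CPM and then 277, 292 and 327 CPM, also all lower (-0.39 ± 0.06, adjusted P = 0.00221). Of 19 sarcomere and Z-disc genes, Actc1 and Nebl fell (10.5%, where 2.01% of all genes did) and none rose. Their calls were lost without any 1 of 9 and 11 of the mice. The sarcomere list summed to 104441 to 120572 CPM at 2 weeks and 88581 to 95745.5 CPM at 6 weeks. Its median was -0.18, and 2 of the 19 changes were positive, by up to 0.99. With library size alone no sarcomere gene was called and the median was -0.07. Gja1, connexin 43, was not called, with a change of -0.07 (adjusted P = 0.697, 95% interval -0.25 to 0.11) that was positive with library size alone and on both TPM scales.

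Few genes returned. The 16 returning genes comprised 10 that were raised and 6 that were lowered at 2 weeks against control. At 6 weeks 13 of them were not called against control, and 3, Ces2e, Ltc4s and Gas6, were still called in the direction of their 2-week change. Ces2e, a carboxylesterase that hydrolyzes drug and lipid esters (chr8:104926260-104934672, plus strand), was at 11, 14.2 and 18.1 CPM at 2 weeks, at 7.83, 8.93 and 10.4 CPM at 6 weeks, and at a mean of 2.76 CPM in the controls. The irradiated groups did not overlap (-0.67 ± 0.12, adjusted P = 0.00713), and both were far above control (2.36 and 1.70). Ltc4s, leukotriene C4 synthase, was at 9.22, 14.2 and 19.9 CPM and then 8.75, 9.33 and 10.3 CPM, with overlap at the low end of the 2-week mice (-0.61 ± 0.15, adjusted P = 0.0247). That call was lost without 2-week mouse 2, 2-week mouse 6 or 6-week mouse 3, with an adjusted P of up to 0.0562. Gas6, the ligand of the TAM receptors that take up dying cells, was at 268, 283 and 319 CPM and then 214, 229 and 292 CPM, against a control mean of 167 CPM. The groups overlapped (-0.27 ± 0.07, adjusted P = 0.0347), and the call was lost without any of 2-week mice 3 to 6 or 6-week mice 1, 3, 4 and 6, with an adjusted P of up to 0.0772.

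Those that were called lower at 2 weeks against control included Rps15a, a protein of the small ribosomal subunit. It was at 92.1, 103 and 116 CPM at 2 weeks, at 127, 132 and 147 CPM at 6 weeks, and at a mean of 139 CPM in the controls. No 2-week mouse reached any 6-week mouse (0.39 ± 0.06, adjusted P = 0.00272), and at 6 weeks the difference from control was -0.06 (adjusted P = 0.544). Ribosomal protein genes have many processed copies in the genome, between which reads may be divided. Txn1, the redox protein thioredoxin, was at 41.1, 46.7 and 49.6 CPM and then 50.5, 56.5 and 62.4 CPM, without overlap, around a control mean of 54.1 CPM (0.28 ± 0.06, adjusted P = 0.0201). Its fall at 2 weeks depended on the scaling, since mean TPM was 61.9 in the controls, 63.1 at 2 weeks and 85.2 at 6 weeks.

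In all 71 genes called between the times only, the changes against control at 2 and 6 weeks had opposite signs. The rule of the class nearly forces this, since with equal signs a change against control exceeds the change between the times. Stc1, a secreted glycoprotein hormone, was at 2.35, 3.09 and 3.58 CPM at 2 weeks and at 4.52, 7.96 and 9.26 CPM at 6 weeks, with the control mean of 4.75 CPM between their means (1.31 ± 0.25, adjusted P = 0.00849). Efhd1, a calcium-binding protein of mitochondria, took the other course, from 3.37, 4.06 and 6.21 CPM to 1.39, 2.32 and 2.74 CPM around a control mean of 2.89 CPM. Neither gene overlapped between the times (Efhd1, -1.10 ± 0.23, adjusted P = 0.0142). Tppp3, which promotes tubulin polymerization, was at 13.6, 18.2 and 20.4 CPM and then 9.45, 11.3 and 13.9 CPM, with a slight overlap (-0.64 ± 0.11, adjusted P = 0.00503).

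Markers of cells that a septal sample can carry along were also followed. Atrial markers summed to 166 to 1253 CPM at 2 weeks and 77.6 to 698 CPM at 6 weeks, and 1 of 5 was called lower, a call lost without any 1 of 14 of the mice. Red blood cell markers summed to 64.8 to 633 CPM and 40.5 to 108 CPM, with none of 5 called and a median of -2.01. Adipocyte markers summed to 2.55 to 30.6 CPM and 1.70 to 42.7 CPM, with none of 5 called. Among neutrophil markers the sums were 0.332 to 2.16 CPM and 0.0774 to 1.93 CPM. The part of these cells in the changes above was not tested.

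**Figure D5:**
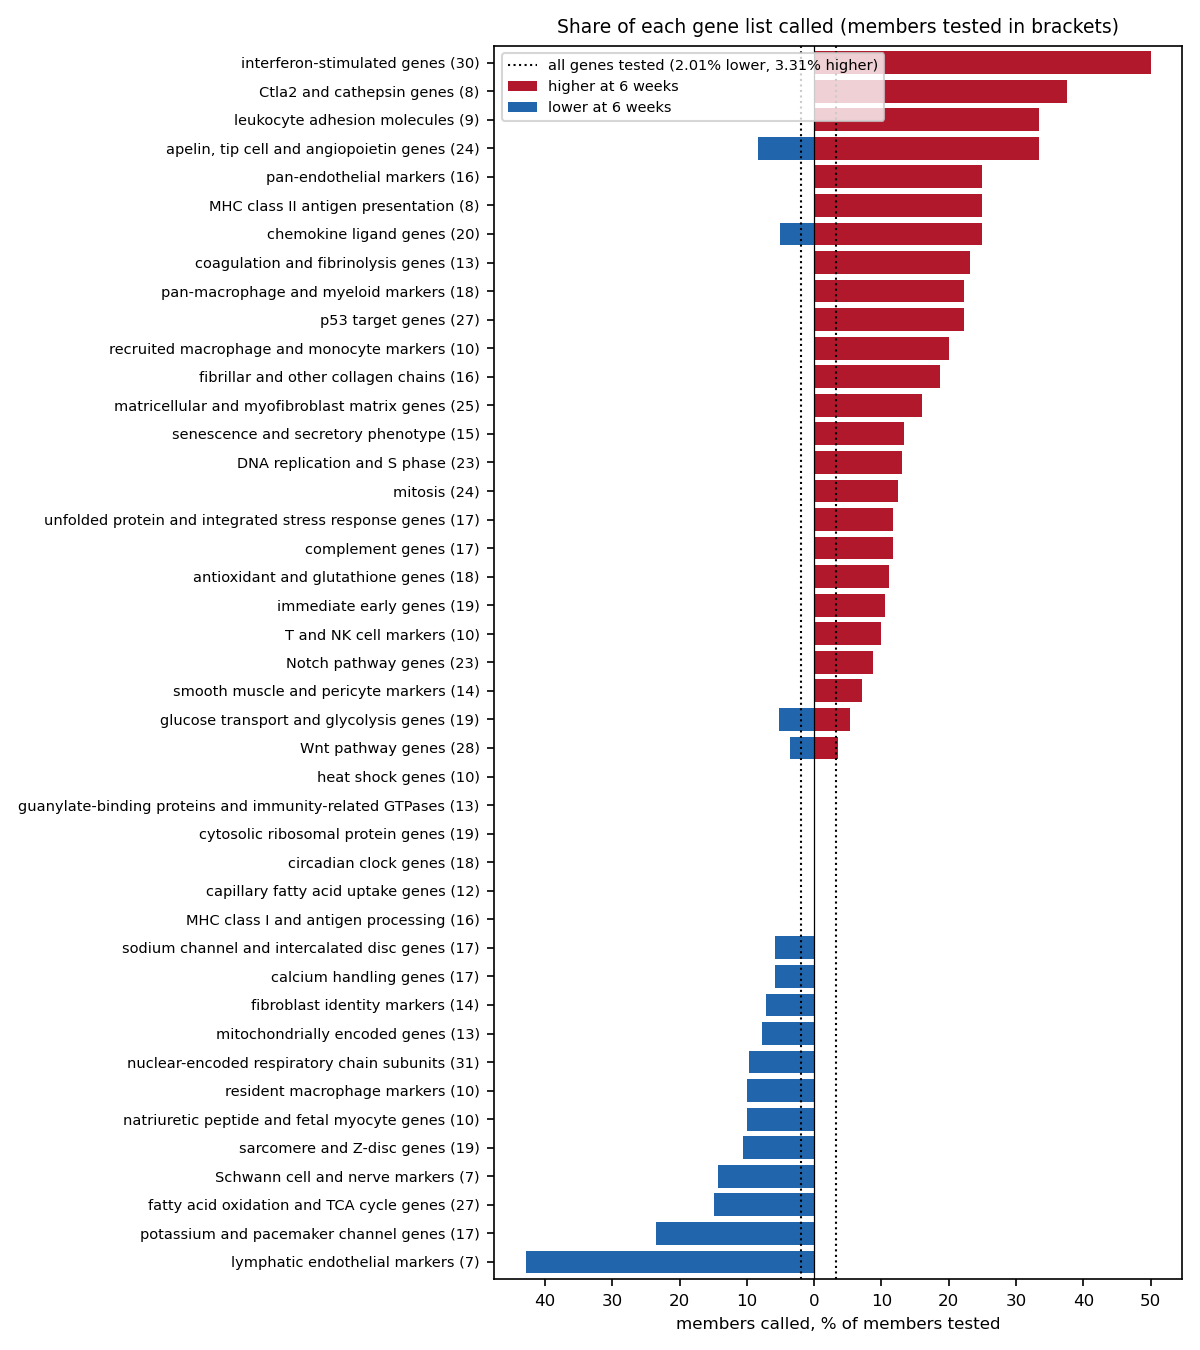
Share of the tested members of each gene list called higher (red, to the right) or lower (blue, to the left) at 6 weeks than at 2 weeks, in % of members tested (x axis), for lists with at least 7 tested members (number in brackets); dotted lines mark the shares over all genes tested (2.01% lower, 3.31% higher). Interferon-stimulated, Ctla2 and cathepsin, adhesion molecule and apelin lists reach furthest to the right, and lymphatic and potassium channel lists furthest to the left.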

How the data were processed

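RNA from the ventricular septum of 18 mice was sequenced by the authors, who aligned the reads to GRCm38 (Ensembl release 76) with STAR, quantified transcripts with Salmon 1.0 and summarized them to genes with tximport. The deposited tables hold estimated counts per gene, not scaled between mice, and TPM values, which the authors' quantification scales to the total of each mouse, so that a gene that takes many reads lowers all others. Whether the quantification used strand is not given in the sources used here, so overlapping and antisense genes cannot be told apart. Gene names were taken from GENCODE M21 for 14926 of the 15054 genes tested.

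Estimated counts were rounded to whole numbers and genes with at least 0.23 CPM in 6 mice were kept. TMM scaling and edgeR 4.0.16 (R 4.3.3) quasi-likelihood tests were applied to 1 fit of the 3 groups, with contrasts of 6 weeks against 2 weeks and of each time against control, and Benjamini-Hochberg adjustment. The groups come from the labels, and p-values measure the spread between mice. Confidence intervals of 95% cover that spread as well, and floors of 3 counts cover counting error only. The scripts were tested on simulated counts first. Alternatives were other scalings and filters, DESeq2 1.42.0, limma 3.58.1 (voom and log2 TPM with pseudocounts of 1 and 0.1), the earlier edgeR form, the irradiated mice alone, a replicate block, a term for Y-linked reads, and fits without each mouse in turn. The fits within mice with and without Y-linked reads (3 and 3 in each group) were added after seeing the data.

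The members and gene lists were chosen with earlier results of these data known. Named genes were the 15 higher and 10 lower genes that ranked first by adjusted P among genes past both thresholds, without overlap and with a name that is not a placeholder, the 6 with the smallest adjusted P in each class and direction, the anchors and up to 4 called members of each of 53 lists, and list genes that returned. Tek, Vegfb and other list members given only by their change were named as parts of a list's count. Genes cited without a call that are not anchors of a list were chosen after their values were seen. Some items are not reported here.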

Additional observations from a re-analysis of the deposited data

Results flagged for a closer look

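In each group of 6 mice, the gap between an extreme mouse and its neighbor was compared with the range of the group for the 53 genes whose CPM per mouse is given. The gap was above the 95% critical value of Dixon's test in 7 of 106 groups, where chance gives about 1 in 20. At 6 weeks the highest mouse stood apart for Cdh23 (mouse 4, 10.4 CPM, next 6.5), Cs (mouse 4, 968 CPM, next 799), Cd74 (mouse 6, 405 CPM, next 289), C1qa (mouse 6, 43.3 CPM, next 32.5) and Mcm6 (mouse 1, 26.3 CPM, next 20.4). At 2 weeks it did so for Slc2a1 (mouse 1, 27.9 CPM, next 21) and Mylk4 (mouse 1, 200.2 CPM, next 157). The calls of Cdh23, Cs, C1qa, Mcm6, Slc2a1 and Mylk4 were kept without any 1 mouse, and that of Cd74 was lost without 6-week mouse 6, among others. Whether the 2 genes of mouse 4, of mouse 6 and of 2-week mouse 1 stand apart for a common reason was not tested.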

How the results depend on the processing

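No called gene among those named turned under the alternatives tried, although 4 of the 802 called genes changed sign on each log2 TPM scale. Of the genes named without a call, Gja1 and Col1a1 turned positive with library size alone and on both TPM scales. Leaving out 1 mouse moved the 802 calls between 330 and 994 and the 172 past both thresholds between 90 and 214. It moved the 755 calls at 2 weeks between 451 and 879 and the 3760 at 6 weeks between 3083 and 3932. Progressing genes were 61 to 217, returning 4 to 20, new 223 to 738 and between the times only 26 to 132. The 802 calls fell by more than 1.5 times without 2-week mouse 1 (478), 2 (354), 4 (385) or 6 (451) or 6-week mouse 1 (419), 3 (393) or 6 (330). Within mice with Y-linked reads, 3 against 3, calls were 32 between the times (19 past both thresholds), 92 at 2 weeks and 1650 at 6 weeks, with 3 progressing, 0 returning, 24 new and 5 between only. Within mice without them the numbers were 58 (22), 135 and 2101, with 4, 1, 45 and 8. The count past both thresholds was 112 with the earlier edgeR form, 274 with library size alone and 79 on log2(TPM + 1). It was 1 when changes were tested against a log2 fold change of 1, 802 by adjusted P alone and 1476 at an adjusted P under 0.10. At 2 weeks against control calls were 1229 with DESeq2, 1789 with library size alone, 3026 on log2(TPM + 0.1) and 2813 on log2(TPM + 1), and at 6 weeks 5820, 7463 and 7472 with the last 3. Progressing genes were 239 with DESeq2, 355 with library size alone, 317 and 395 on log2(TPM + 0.1) and log2(TPM + 1), 13 with both thresholds and 273 at an adjusted P under 0.10. Returning genes were 39 with DESeq2, 8 on log2(TPM + 0.1), 8 without a filter, 1 with both thresholds and 48 at 0.10. New genes were 136 with both thresholds and 986 at 0.10. Genes between the times only were 143 with DESeq2, 144 with limma voom, 30 and 40 on log2(TPM + 0.1) and log2(TPM + 1), 22 with both thresholds and 169 at 0.10. The causes were not tested, apart from the smaller number of mice in the fits of 3 against 3.

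With the replicate number as a block, 542 genes were called between the times, 489 of them among the 802, and 8 were returning. The labels name no pairing of mice by these numbers. Deviations of same-numbered 2-week and 6-week mice correlated at -0.06 to 0.08 (median 0.04, against -0.02 for other numbers). Such values cannot exclude a shared litter or batch. The numbers follow the presence of Y-linked reads. A gene that was not called is not shown to be unchanged.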
